A study of Mus musculus with 5 samples.

Results

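Oxidative phosphorylation genes were followed in regulatory T cells (Tregs) of mouse lymph node and adipose tissue. Members were the protein-coding genes whose mouse symbol carries a prefix of the 5 respiratory complexes (Ndufa, Ndufb, Ndufc, Ndufs, Ndufv, Sdha to Sdhd, Uqcr, Cox4 to Cox8, Atp5) or of the mitochondrial genome (mt-Nd, mt-Co, mt-Cytb, mt-Atp). The rule took 110 of the 49861 genes in the tables: 84 nuclear subunits, 13 genes of the mitochondrial genome and 13 assembly factors and relatives that share a prefix (Ndufaf1 to Ndufaf8, Sdhaf1 to Sdhaf4 and Atp5s). Of the 110, 106 were listed above 0 in some library, 99 reached 20 counts per 1000000 (CPM) in some library, and 96 were above 0 in all 5.

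The study compared Tregs of C57BL/6 mice that all carried Foxp3Cre, a Cre recombinase expressed from the Treg gene Foxp3. Lymph node (LN) Tregs came from mice of 4 months. Adipose Tregs came from mice of 4 months, from obese mice of 4 months whose title carries HFD, from mice of 10 months, and from mice of 10 months with floxed Med23 (Med23fl/fl;Foxp3Cre), in which Cre would act in Foxp3-expressing cells. The adipose library of 4 months with no label of obesity is called lean here. There was 1 RNA-seq library per group, so no difference between conditions could be tested; the number of mice behind a library and the sort gate are unknown here.

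Respiratory complexes I to IV pass electrons from NADH and succinate to oxygen and, at complexes I, III and IV, pump protons across the inner mitochondrial membrane; complex V, the ATP synthase, lets them back to make ATP. Most subunits are encoded in the nucleus and imported, while a core set is encoded in mitochondrial DNA, and complex II is wholly nuclear. Tregs are known to lean on mitochondrial respiration more than conventional effector T cells do.

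Levels are CPM, the authors' scaled read counts rescaled to a sum of 1000000 per library. Listed reads were 9694474 in LN, 8540594 in lean, 7496496 in obese, 9650769 in 10-month adipose and 4595046 in the library labelled Med23 KO. Bracketed ranges are exact 95% intervals for counting error only, since reads carried no molecular identifiers; they say nothing about variation between mice. A value of 0 means under 1 scaled count, and no fold is given against it. A gene was called higher or lower where log2(CPM + 1) differed by at least 2-fold, a scale that understates the change of low genes. In bulk RNA, fewer cells of a type and less RNA per cell cannot be told apart.

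Some facts of the libraries touch the results. The 10 Treg and T cell markers were all above 0 in every library, with sums of 7686 to 10452 CPM, and Foxp3 ran from 52.5 CPM in LN to 216 in lean adipose. Med23 was at 6.40 CPM in LN, 46.8 in lean, 33.3 in obese, 6.32 in 10-month adipose and 15.5 in the library labelled Med23 KO, so it was not lower in that library than in 10-month adipose; a value for the whole gene also covers exons outside a floxed part. Gapdh was at 979 CPM in LN, 1.05 in lean, 10.7 in obese, 639 in 10-month adipose and 548 in the library labelled Med23 KO, so the 4-month adipose libraries stood apart. They also did so in Xist, expressed from the inactive X chromosome of female cells, at 228 CPM in LN, 0 in lean, 3.60 in obese, 440 in 10-month adipose and 602 in the library labelled Med23 KO, so this mark of sex goes along with each comparison of a 4-month adipose library with LN or 10-month adipose. Macrophage and dendritic cell markers summed to 7.01 CPM in LN, 887 in lean, 4939 in obese, 658 in 10-month adipose, with 108 in the library labelled Med23 KO. The erythroid list summed to 0, 584, 1066, 1202 and 8943 CPM in the same order. The fibroblast and mesothelial list summed to 1083 CPM in lean adipose, of which Dcn held 791, and to 9.59 in LN, 23.3 in obese, 53.2 in 10-month adipose and 0 in the library labelled Med23 KO. Of the 10 adipocyte markers, Plin1 and Lep were at 0 in all 5 libraries. Their sum was highest in obese adipose at 322 CPM, of which 294 was Fabp4, a gene that macrophages also express, and no other adipocyte marker was above 15.9 CPM there. The part of these other cells and of the library differences in the results below was not tested.

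Several mitochondrial genes have near-identical copies in a nuclear segment of chromosome 1, which decides how far their values can be read. The first 60 bases of mt-Co3, a complex IV core subunit (GRCm38 chrM:8607-9390, plus strand), and of its annotated copy Gm28437 (chr1:24613189-24613971, minus strand) are shown because no base separates them over the 783 bases aligned.
mt-Co3: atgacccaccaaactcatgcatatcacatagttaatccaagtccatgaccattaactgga
Gm28437: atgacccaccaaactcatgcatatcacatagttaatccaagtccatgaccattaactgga
For mt-Nd3, a complex I core subunit (chrM:9459-9806, plus strand), and its copy Gm28438 (chr1:24612775-24613119, minus strand) the capital marks the only base that differs over 345 aligned bases, T3C, counted from 1 at the start of the gene.
mt-Nd3: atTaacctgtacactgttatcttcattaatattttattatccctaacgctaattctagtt
Gm28438: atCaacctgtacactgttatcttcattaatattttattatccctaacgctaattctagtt
Reads of such a pair can be placed on either. The 8 mitochondrial genes with such a copy, or lying in the span the copies cover, are therefore given apart from the 5 without one (mt-Nd1, mt-Nd2, mt-Nd5, mt-Nd6 and mt-Cytb).

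Summed, the nuclear subunits were highest in LN Tregs and lower in all 4 adipose libraries. Their summed level was 28363 CPM in LN, 16574 in lean, 15243 in obese, 11915 in 10-month adipose and 11368 in the library labelled Med23 KO. Of the 76 nuclear subunits that reached 20 CPM in some library, 64 were highest in LN, 6 in lean, 0 in obese adipose, 4 in 10-month adipose, with 2 in the library labelled Med23 KO. The lowest value fell in 10-month adipose for 31 subunits; for another 31 it was the library labelled Med23 KO. The median level was 327 CPM in LN, 187 in lean, 189 in obese, 123 in 10-month adipose, with 113 in the library labelled Med23 KO.

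**Figure D1:**
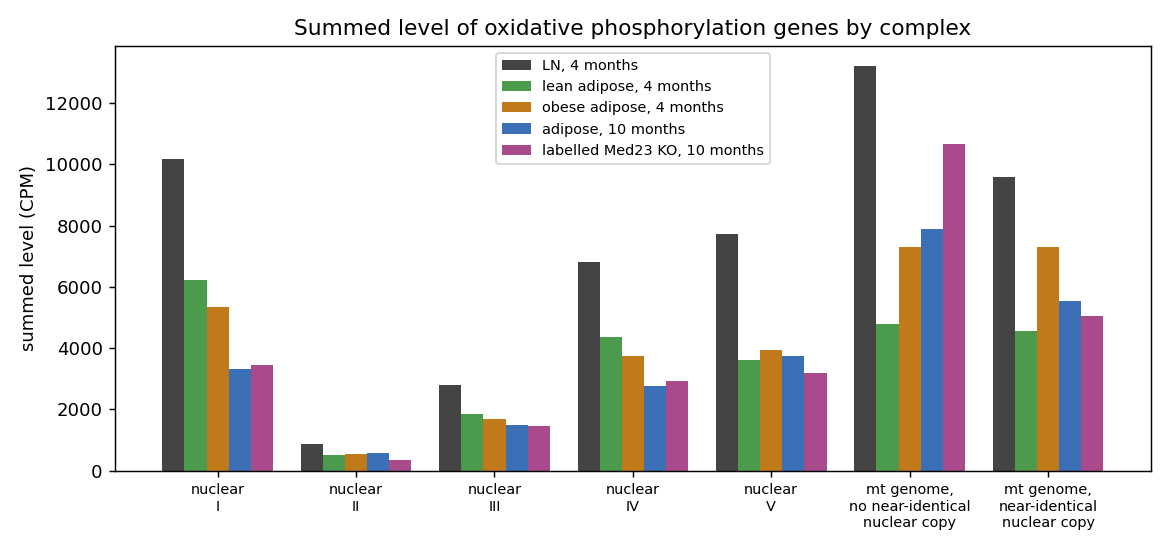
Summed level (CPM) of the nuclear subunits of complexes I to V and of the mitochondrial genome genes without and with a near-identical nuclear copy; each bar is 1 library. LN has the highest bar in every set.

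By complex, the LN sum was the highest throughout. Complexes were assigned by symbol prefix alone, so Ndufa4 is counted with complex I and Cox7a2l with complex IV. Complex I, the NADH dehydrogenase, summed to 10182 CPM in LN, 6234 in lean, 5331 in obese, 3333 in 10-month adipose and 3449 in the library labelled Med23 KO. Complex IV, cytochrome c oxidase, followed the same order with 6802, 4356, 3736, 2772 and 2935 CPM. Complex III summed to 2808, 1840, 1692, 1480 and 1471 CPM. Complexes I and IV thus differed more between 4-month and 10-month adipose than complex V did, whose sums were 7714, 3616, 3941, 3744 and 3180 CPM. Complex II, succinate dehydrogenase, summed to 857, 528, 543, 587 and 334 CPM.

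In lean adipose against LN, 38 of the 103 members measured were lower and 4 were higher, where 30.3% of all genes measured were lower and 39.5% higher. The median log2 ratio of the members was -0.83, beside 0.28 for all genes measured. The share of members lower was 36.9%. At a 1.5-fold threshold 70 of 103 members were lower, beside 36.1% of all genes measured, so the distance from the background depends on the threshold. Among genes at a mean of 20 CPM or more, 38 of 97 members were lower and 1 higher, where 23.8% of all such genes were lower and 30.5% higher. Among nuclear subunits 24 of 78 were lower and 3 higher, with a median of -0.78. For complex V, 8 of 16 were lower and none higher (median -0.95); for complex I, 10 of 37 were lower and 1 higher (median -0.73). The members higher were mt-Co3, Ndufb2, Cox6b2 and Cox7a1, of which only mt-Co3 reached 20 CPM. Reads of mt-Co3 can also be placed on its copy Gm28437, which was at 160 CPM in LN and 202 in lean.

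In obese adipose against LN, 42 of 105 members were lower and 6 higher, where 21.2% of all genes were lower and 43.8% higher. The median was -0.82, beside 0.60 for all genes. At a mean of 20 CPM or more, 41 of 98 members were lower and 3 higher, beside 20.7% and 26.9% of all such genes. Among nuclear subunits 31 of 79 were lower and 2 higher (median -0.82). Complex I had 16 of 37 lower and none higher, and complex V had 9 of 16 lower and none higher.

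In 10-month adipose against LN, 67 of 104 members were lower and 5 higher, where 29.6% of all genes were lower and 34.1% higher. The median was -1.35, beside 0.11 for all genes. At a mean of 20 CPM or more, 66 of 96 members were lower and 2 higher, beside 24.5% and 23.3% of all such genes. Nuclear subunits accounted for most of it: 57 of 79 were lower and 5 higher, with a median of -1.42. Complex I had 30 of 37 lower (median -1.61), complex IV 11 of 14 (median -1.30) and complex V 12 of 16 (median -1.40). Complex III had 3 of 8 lower and complex II 1 of 4. These 3 comparisons share the LN library, so a low or high value there enters all of them. Tissue and age also differ together in the last.

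**Figure D2:**
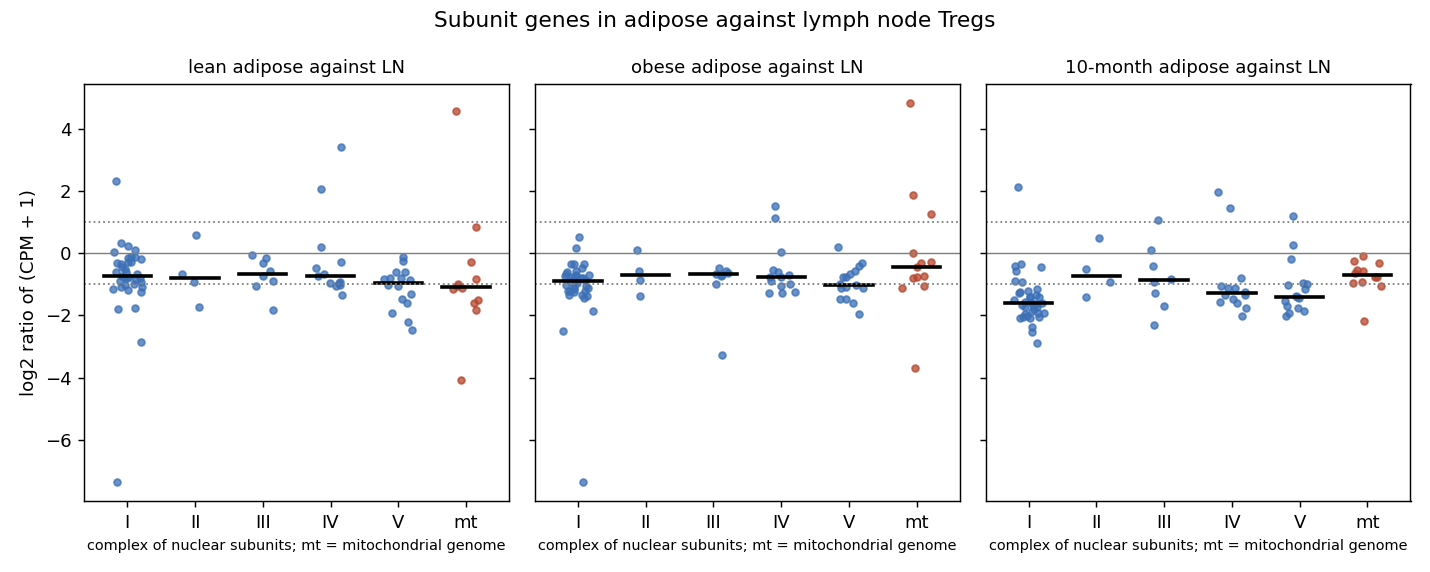
Log2 ratio of (CPM + 1) of each subunit gene against LN, by complex for nuclear subunits (blue) and for the mitochondrial genome (red); black lines are medians and dotted lines mark 2-fold. In 10-month adipose the complex I median is -1.61.

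Within adipose tissue the members of lean and obese mice were closer. In obese against lean adipose, 7 of 104 members were lower and 8 higher, where 18.6% of all genes were lower and 34.0% higher, and the median was -0.07 (all genes 0.20). At a mean of 20 CPM or more, 3 of 92 were lower and 4 higher, beside 12.1% and 13.0% of all such genes. Both shares were below the background either way. Nuclear subunits had 6 of 78 lower and 3 higher (median -0.19), while all 13 mitochondrial genes had a log2 ratio above 0 (median 0.44), 1 of them past 2-fold.

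In 10-month against lean adipose, 29 of 104 members were lower and 10 higher, where 32.6% of all genes were lower and 28.4% higher. The median was -0.47, beside -0.15 for all genes. At a mean of 20 CPM or more, 27 of 94 members were lower and 7 higher, beside 22.2% and 15.2% of all such genes. Complex I had 17 of 37 nuclear subunits lower and 1 higher (median -0.84), and complex IV had a median of -0.63. Complexes III and V had medians of -0.06 and -0.11. In these libraries age differs together with the marks noted above, such as Gapdh, and the deposited tables too.

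In the library labelled Med23 KO against 10-month adipose, 17 of 103 members were lower and 8 higher, where 31.2% of all genes were lower and 33.1% higher. The median was 0.07, beside 0.14 for all genes. Nuclear subunits had 13 of 78 lower and 4 higher (median -0.02), and the mitochondrial genome had 2 of 12 higher and none lower (median 0.60). At a mean of 20 CPM or more, 11 of 92 members were lower and 7 higher, beside 17.5% and 26.3% of all such genes. Both shares of members were below the background either way.

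**Figure D3:**
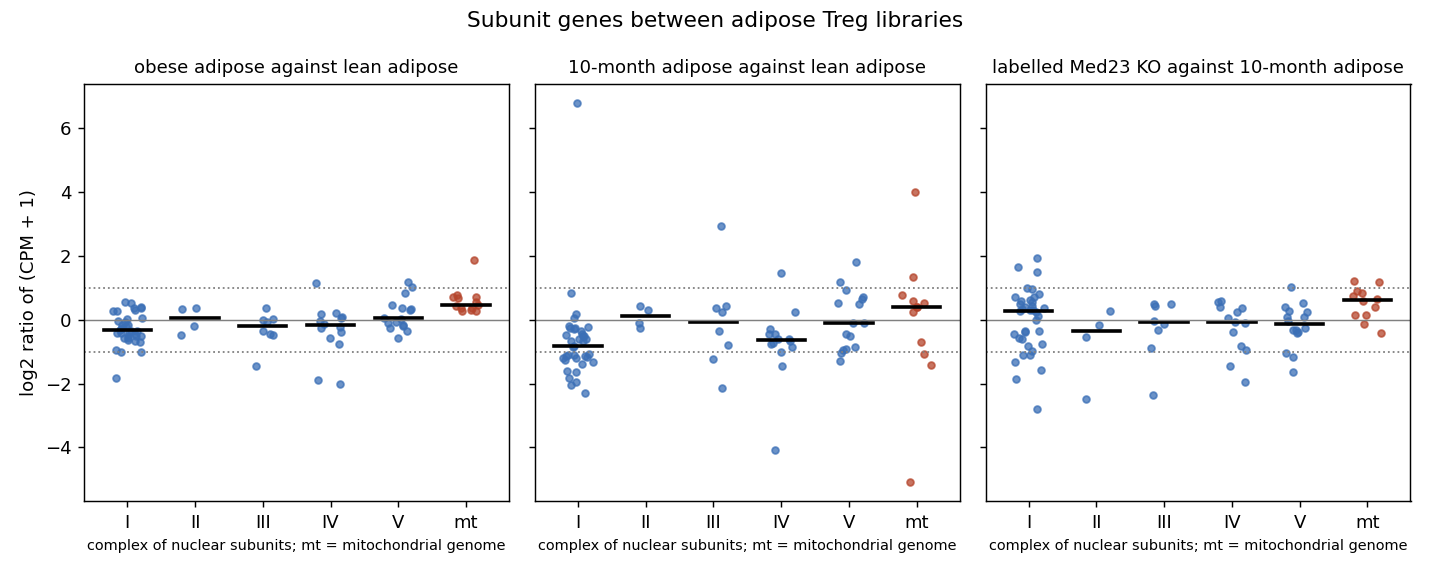
Log2 ratio of (CPM + 1) of each subunit gene between adipose libraries, by complex (blue, nuclear) and for the mitochondrial genome (red), with medians (black) and 2-fold lines (dotted). Obese against lean has a nuclear median of -0.19 and a mitochondrial median of 0.44.

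Single members departed from their complex. Ndufs3, a core subunit of complex I, was at 165 CPM in LN, 0 in lean, 0 in obese, 109 in 10-month adipose and 29.6 in the library labelled Med23 KO. It was thus at 0 in the 4-month adipose libraries and in no other. Its annotated pseudogene copy was at 0 in LN, 11.9 CPM in lean, 12.9 in obese and 0 in both 10-month libraries. Of 3922 genes at 20 CPM or more in LN and both 10-month libraries, 86 of them members, 27 were under 2 CPM in both 4-month adipose libraries, and Ndufs3 was the only member among these.

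Ndufs6, a small accessory subunit with a zinc site, was at 260 CPM in LN, 172 in lean, 120 in obese, 34.3 in 10-month adipose and 97.3 in the library labelled Med23 KO. It had the lowest complex I ratio in 10-month adipose against LN, 7.59-fold lower (6.77 to 8.54). Ndufs1, the largest core subunit, was at 78.6, 91.6, 61.4, 23.1 and 91.4 CPM in the same order of libraries. It was low in 10-month adipose only, and 3.96-fold higher (3.35 to 4.67) in the library labelled Med23 KO than there. The core subunit Ndufv1, which binds NADH, was at 41.0, 37.4, 46.4, 30.3 and 49.8 CPM, within 2-fold of LN in every adipose library. Ndufs8, an iron-sulfur core subunit, was at 235 CPM in LN and from 39.2 to 98.4 CPM in adipose. Ndufb6 was at 74.8, 80.9, 59.1, 33.3 and 3.92 CPM, and had the lowest complex I ratio in the library labelled Med23 KO against 10-month adipose.

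In complex II the catalytic subunit and the others went different ways. Sdha, the flavoprotein that oxidises succinate, was at 124 CPM in LN, 187 in lean, 134 in obese, 175 in 10-month adipose and 155 in the library labelled Med23 KO. It was lowest in LN, though within 2-fold throughout. Sdhb, the iron-sulfur subunit, was at 380, 198, 256, 265 and 46.6 CPM, and 5.69-fold lower (4.95 to 6.57) in the library labelled Med23 KO than in 10-month adipose. The membrane anchor Sdhd was at 238 CPM in LN and from 60.1 to 89.9 CPM in adipose, 3.33-fold lower (3.04 to 3.64) in lean than in LN. The other anchor, Sdhc, was at 115 CPM in LN and from 59.3 to 72.0 CPM in adipose.

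In complex III, Uqcrc1, a core protein facing the matrix, was at 85.9 CPM in LN, 23.4 in lean, 8.0 in obese, 183 in 10-month adipose, with 145 in the library labelled Med23 KO. The 4-month adipose libraries were low and the 10-month ones high, on either side of LN. Against LN it was 3.67-fold lower (3.14 to 4.30) in lean, 10.7-fold lower (8.26 to 14.2) in obese and 2.13-fold higher (1.96 to 2.31) in 10-month adipose. Its partner Uqcrc2 was at 118, 70.1, 71.1, 89.5 and 16.8 CPM, low only in the library labelled Med23 KO. The Rieske iron-sulfur protein Uqcrfs1 was at 167, 133, 104, 177 and 94.4 CPM, within 2-fold of LN in every library. The small subunit Uqcr11 was at 358, 320, 230, 71.4 and 99.5 CPM, low in both 10-month libraries.

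In complex IV the common isoforms were abundant and highest in LN with the exception of Cox6a1. Cox4i1, which binds ATP as a regulator, was at 848, 420, 409, 307 and 235 CPM. Cox5a was at 116, 56.0, 47.5, 33.2 and 16.5 CPM and Cox5b at 446, 227, 264, 187 and 173 CPM. Cox6a1 was at 619, 716, 426, 355 and 199 CPM, highest in lean adipose. The isoforms of other tissues were near or at 0: Cox6a2, Cox7b2, Cox8c and Ndufa4l2 had no value above 0 in any library, Cox4i2 was at 1.76 CPM in 10-month adipose only, and Cox8b at 1.20 CPM in obese adipose only. Cox7a1, the heart, muscle and brown fat isoform, was at 9.72 CPM in lean, 1.87 in obese and 2.90 in 10-month adipose and 0 elsewhere, beside 413 CPM of its common partner Cox7a2 in lean adipose. The testis isoform Cox6b2 was at 16.04 CPM in lean adipose and at most 3.20 CPM elsewhere.

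In complex V, Atp5b and Atp5a1 were above LN in 10-month adipose, where 14 of the 16 subunits were below it. Atp5b, the catalytic beta subunit, was at 246 CPM in LN, 161 in lean, 286 in obese, 559 in 10-month adipose and 180 in the library labelled Med23 KO. It was highest in 10-month adipose, 2.27-fold above LN (2.16 to 2.38), and 3.10-fold lower (2.88 to 3.34) in the library labelled Med23 KO than there. The alpha subunit Atp5a1 was within 2-fold of LN throughout. Atp5c1, the central stalk, was at 718, 155, 354, 351 and 156 CPM. The c-ring genes, which encode the same mature protein, were each highest in LN: Atp5g1 was at 640 CPM there and from 156 to 225 CPM in adipose, Atp5g2 at 398 and from 55.5 to 143, and Atp5g3 at 634 and from 217 to 308.

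The 13 assembly factors and relatives summed to 860 CPM in LN, 347 in lean, 351 in obese, 332 in 10-month adipose and 296 in the library labelled Med23 KO. Ndufaf6, a complex I assembly factor, was at 50.2 CPM in LN, 0 in lean, 3.47 in obese, 1.55 in 10-month adipose and 55.3 in the library labelled Med23 KO. Ndufaf3 was at 104, 14.3, 29.5, 29.2 and 0 CPM and Atp5s at 57.6, 10.3, 32.3, 40.3 and 0 CPM. Ndufaf1 was at 13.2, 10.3, 30.5, 12.7 and 0 CPM.

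Mitochondrial genome genes held 2.28% of listed reads in LN (2.27 to 2.29), 0.932% in lean (0.926 to 0.939), 1.46% in obese (1.45 to 1.47), 1.34% in 10-month adipose (1.33 to 1.35) and 1.57% in the library labelled Med23 KO (1.56 to 1.58). Every adipose library was below LN, and lean adipose was the lowest. The 2 mitochondrial ribosomal RNA genes, which are no members, had another order, with a sum of 624 CPM in LN, 848 in lean, 362 in obese, 292 in 10-month adipose, with 660 in the library labelled Med23 KO; the highest there was lean adipose. The 5 genes with no near-identical copy summed to 13201 CPM in LN, 4775 in lean, 7302 in obese, 7882 in 10-month adipose, with 10668 in the library labelled Med23 KO. The nuclear subunits did not keep that order, so the mitochondrial to nuclear ratio of sums was 0.803 in LN, 0.562 in lean, 0.958 in obese, 1.13 in 10-month adipose and 1.38 in the library labelled Med23 KO. Over the 5 genes without a copy it was 0.465, 0.288, 0.479, 0.661 and 0.938. Mitochondrial transcripts come off long precursors that are cut and polyadenylated, so their share also depends on how a library selects RNA.

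mt-Cytb, the complex III core subunit, was at 6881 CPM in LN, 1954 in lean, 3172 in obese, 3324 in 10-month adipose and 3682 in the library labelled Med23 KO, 3.52-fold lower (3.46 to 3.58) in lean than in LN. mt-Nd1 was at 2738, 1541, 2247, 2189 and 2433 CPM. mt-Nd2 was at 1831, 647, 880, 968 and 2209 CPM and mt-Nd5 at 1410, 468, 804, 1182 and 1841 CPM. Both were lowest in lean adipose and highest in the library labelled Med23 KO. mt-Nd6, read from the opposite strand, was at 342, 165, 199, 219 and 502 CPM; the strand setting of the counting is unknown here.

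Genes with a copy behaved unevenly. mt-Co1 was at 7752, 3451, 5654, 4538 and 3425 CPM. mt-Co3 was at 4.64 CPM in LN, 132 in lean, 161 in obese, 2.90 in 10-month adipose and 4.79 in the library labelled Med23 KO, 28.5-fold higher (21.2 to 39.3) in lean than in LN. Per length, mt-Co1 was at 5017 CPM per kb in LN and mt-Co3 at 5.92, although both lie on the same precursor. The copy Gm28437, identical to mt-Co3 as printed above, was at 160 CPM in LN, 202 in lean, 200.2 in obese, 10.98 in 10-month adipose and 21.3 in the library labelled Med23 KO, so the ratio of the gene to its copy differed between libraries. mt-Atp8 was at 43.4, 1.64, 2.40, 40.8 and 37.0 CPM, and overlaps mt-Atp6 (250, 115, 149, 54.2 and 102 CPM). mt-Co2 was at 60.4, 109, 146, 40.3 and 53.8 CPM, mt-Nd4 at 1460, 730, 1169, 855 and 1426, and mt-Nd3 between 5.49 and 11.9. mt-Nd4l was listed above 0 only in obese adipose, at 2.67 CPM.

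**Figure D4:**
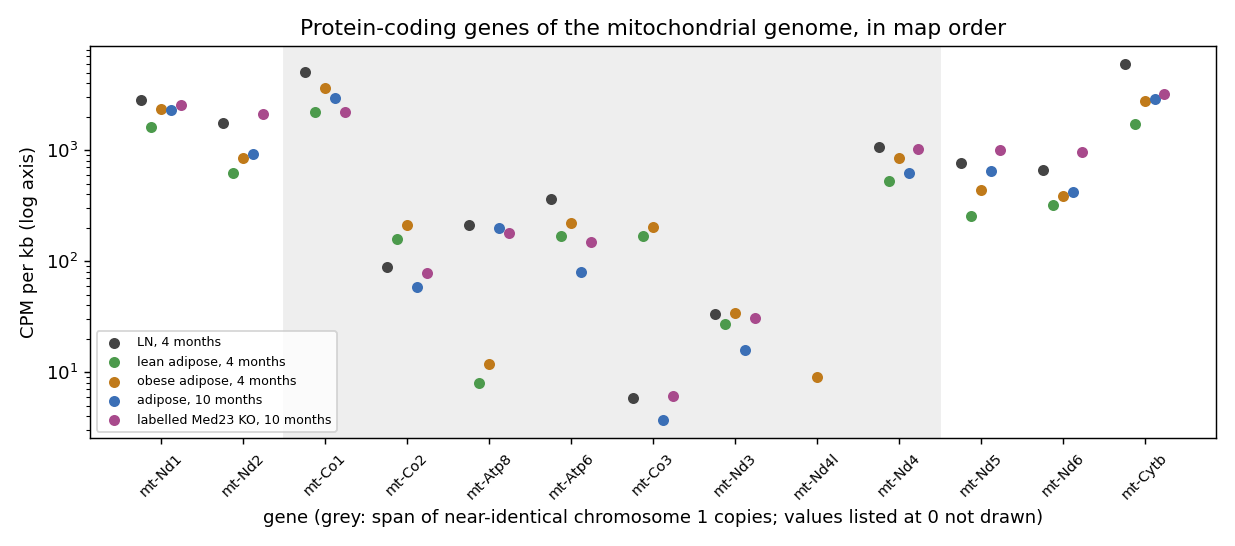
Level per length (CPM per kb, log axis) of the 13 protein-coding genes of the mitochondrial genome in map order, 1 point per library; grey marks genes in the span of near-identical chromosome 1 copies, and values at 0 are not drawn. mt-Co3 is at 5.92 CPM per kb in LN beside 5017 for mt-Co1.

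Annotated pseudogene copies of members (88 copies of 43 members) summed to 237 CPM in LN, 1105 in lean, 1005 in obese, 47.8 in 10-month adipose, with 111 in the library labelled Med23 KO. The 4-month adipose libraries were high, and the level of pseudogenes of other genes was not set beside these sums. For the 73 copies of nuclear members the sums were 24.9, 499, 414, 21.3 and 37.6 CPM. The largest parts, chosen after their values were seen, were copies of Cox7c (3.0, 120, 77.8, 0 and 2.8 CPM) and of Atp5l (0, 81.8, 85.2, 3.1 and 10.4 CPM). Ndufa12 itself was at 301 CPM in LN, 40.4 in lean and 52.6 in obese, while its copy was at 0, 41.9 and 50.2. With the reads of copies added to the members, the counts of members lower or higher stayed within 1.5 times of those above in all 6 comparisons.

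The promoters of 67 of the 84 nuclear subunits were in the RefSeq table (GRCm38.p6; 250 bases before to 50 after the start). The motif of NRF1, a factor known to drive respiratory chain genes, has 10 bases of which the 6th is free (the run GCGCAGGCGC in the Atp5h promoter below is a match). It was on either strand in 17 of 67 (25.4%), beside 7.44% of the 16522 coding promoters. The ETS motif CCGGAAGT was in 5 (7.46%, beside 5.94%) and a 10-base YY1 motif in 5 (7.46%, beside 1.49%). The promoters of Atp5h, a stalk subunit of complex V (chr11:115419870-115420169, minus strand), and Cox8a, a small subunit of complex IV (chr19:7217567-7217866, minus strand), are printed as the highest in LN that hold an NRF1 match, and an ETS match without NRF1; capitals mark each match of these motifs on either strand.
Atp5h: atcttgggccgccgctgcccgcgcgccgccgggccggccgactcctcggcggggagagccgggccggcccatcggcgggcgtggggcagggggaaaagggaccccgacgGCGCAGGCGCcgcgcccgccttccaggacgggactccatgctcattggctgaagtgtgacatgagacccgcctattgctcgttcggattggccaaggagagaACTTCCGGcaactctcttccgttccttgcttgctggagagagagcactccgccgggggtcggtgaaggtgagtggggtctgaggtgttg
Cox8a: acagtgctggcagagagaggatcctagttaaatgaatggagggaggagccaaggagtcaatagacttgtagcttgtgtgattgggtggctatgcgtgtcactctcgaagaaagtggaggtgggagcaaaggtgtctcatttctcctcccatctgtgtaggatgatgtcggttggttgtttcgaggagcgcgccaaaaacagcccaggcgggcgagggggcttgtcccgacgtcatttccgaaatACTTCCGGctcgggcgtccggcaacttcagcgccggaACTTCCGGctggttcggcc
The median log2 ratio of subunits with and without an NRF1 match was -1.05 and -0.77 in lean adipose against LN, -1.02 and -0.78 in obese, and -1.44 and -1.41 in 10-month adipose. A match is a run of letters, not a measured binding site.

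Most nuclear subunits have short transcripts, with a median of 694 bases beside 2669 for coding genes at a mean of 20 CPM or more. Length was looked at after the ratios were seen, as the exon length of the transcript with the longest coding sequence. In 10-month adipose against LN, 45 of 50 subunits under 1000 bases were lower (90%), and so were 61.4% of all 612 genes that short; of the longer ones, 11 of 25 subunits (44.0%) and 19.98% of all genes were. In lean adipose 17 of 50 short subunits (34.0%) and 43.2% of all short genes were lower, and in obese adipose 21 of 50 (42.0%) and 48.6%. Of the longer ones, 7 of 25 subunits (28%) and 21.7% of all genes were lower in lean adipose. In obese adipose it was 10 of 25 (40%) and 17.4%. Short genes as a whole were thus lower in adipose than in LN. In lean and obese adipose the share of short subunits lower did not exceed that of short genes, while that of longer subunits exceeded that of longer genes. Lengths were first taken as the median over a gene's coding transcripts, which fragments shorten (Uqcrc1 then has 533 bases and not 1653). With those lengths, 87.7% of short subunits and 41.7% of all short genes were lower in 10-month adipose, 31.6% and 35.6% in lean, and 42.1% and 36.8% in obese adipose. The gap between short subunits and all short genes in 10-month adipose is therefore smaller with the lengths used here, and in obese adipose it changes sign. The part of length in the ratios of the members was not tested.

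**Figure D5:**
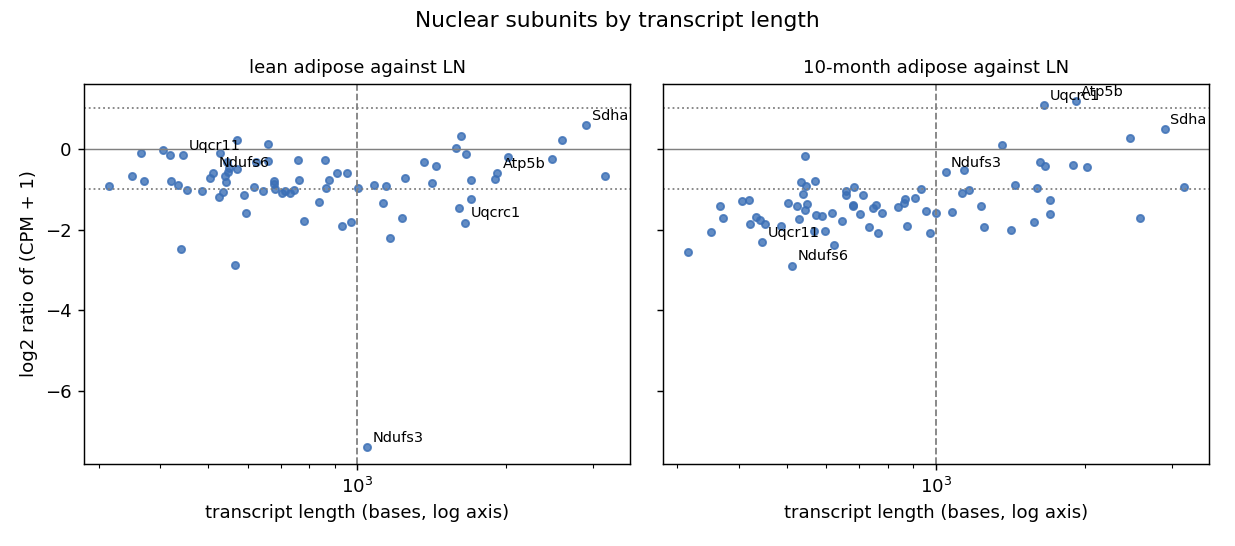
Log2 ratio of (CPM + 1) of nuclear subunits at a mean of 20 CPM or more by transcript length (bases, log axis) in lean and 10-month adipose against LN; the dashed line marks 1000 bases and dotted lines 2-fold. In 10-month adipose 45 of 50 subunits left of the dashed line are below the lower dotted line.

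Other genes of the pathway were counted in lists by the same 2-fold size. The shares of all genes measured stand beside them: 30.3% lower and 39.5% higher in lean against LN, 21.2% and 43.8% in obese, and 29.6% and 34.1% in 10-month adipose. Of the 15 genes of cytochrome c and coenzyme Q, 4 were lower and 3 higher in lean against LN, 3 and 4 in obese, and 2 and 6 in 10-month adipose (median 0.59). Against lean adipose, 4 were lower and 6 higher in obese, beside 18.6% and 34.0% of all genes. In 10-month against lean adipose it was 2 and 6 (median 0.84), beside 32.6% and 28.4% of all genes. In the library labelled Med23 KO against 10-month adipose, 9 of 14 measured were lower and none higher (median -1.96), beside 31.2% and 33.1% of all genes (median 0.14). Cyc1, the complex III cytochrome, was at 84.8, 155, 55.2, 126 and 28.1 CPM, and Cycs, the mobile carrier, at 382, 342, 265, 381 and 285 CPM. Genes of mitochondrial DNA transcription and replication had 10 of 16 lower and 2 higher in lean against LN (median -1.66), 8 of 17 lower and 2 higher in obese, and 10 of 17 lower and 3 higher in 10-month adipose. Tfam, which packages mitochondrial DNA and starts its transcription, was at 111 CPM in LN, 0 in lean, 72.3 in obese, 49.2 in 10-month adipose, with 22.4 in the library labelled Med23 KO.

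The 36 assembly factors outside the rule had 9 of 32 lower and 7 higher in lean against LN, with a share lower near that of all genes, 14 of 33 and 6 in obese, and 16 of 32 and 8 in 10-month adipose. The tricarboxylic acid cycle genes had 4 of 18 lower and 3 higher in lean against LN, 3 of 17 and 2 in obese, and 3 of 18 and 4 in 10-month adipose, so their medians (-0.40, 0.07 and 0.28) lay above those of the nuclear subunits. Carriers and channels had 6 of 12 lower and 1 higher in lean against LN, 5 of 13 and 2 in obese, and 4 of 13 and 2 in 10-month adipose. In 10-month against lean adipose, 1 of the 13 was lower and 6 were higher, beside 32.6% and 28.4% of all genes. Slc25a3, which imports the phosphate for ATP synthesis, was higher in adipose, at 411 CPM in LN and from 1304 to 2155 CPM in adipose. The lowest ratios in lean against LN were those of Slc25a11 and Vdac3. Slc25a11 was at 73.5 CPM in LN and from 6.79 to 62.2 CPM in adipose, and Vdac3 at 195 and from 8.92 to 169. The regulators had 2 of 10 lower and 4 higher in lean against LN, beside 30.3% and 39.5% of all genes. In obese it was 2 and 5 of 10 (21.2% and 43.8%), and in 10-month adipose 2 and 5 of 10 (29.6% and 34.1%). Nrf1 was at 12.4 CPM in LN and from 50.6 to 116 CPM in adipose. Gabpa went the other way, at 75.7 CPM in LN and from 13.5 to 54.5 CPM in adipose. Hif1a, a factor of the response to low oxygen, was at 262 CPM in LN and from 1250 to 1513 CPM in adipose. The coactivator gene Ppargc1a was at 0 in every library. Ucp1 and Ucp3 were at 0 in every library, and Ucp2 was at 400.2, 158, 239, 415 and 111 CPM.

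In the authors' deposited tables, their mark of change stood on 50 members as lower and 4 as higher in lean against LN, of 104 with a value, beside 24.1% and 29.1% of all genes with a value. In obese against LN the authors' deposited table marked 51 and 3 of 102, beside 17.3% and 24.5% of all genes. For the library labelled Med23 KO against 10-month adipose it stood on 19 as lower and 5 as higher of 101, beside 20.3% and 20.5% of all genes, so the share lower was near the background. Those marks compare 2 libraries and not conditions.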

How the data were processed

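The authors deposited 3 tables of 2 libraries each whose signal is a scaled read count per gene, beside columns for the log2 fold change, the p-value and the q-value. Per the submitters' processing notes, Bowtie2 2.0.6, TopHat2 2.0.9 and mm8 were used. The counter, annotation, strand setting and scaling remain not given in the sources used here. The values listed are per library multiples of 1 step that stands for 1 read (100% to within 0.01 read), but values under 1 scaled count are listed as 0 (6 to 10 reads), so no model for raw counts was used. The authors' p-values compare 2 libraries and are not printed.

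Values were rescaled to CPM so that libraries of different tables could be set side by side. The listed LN values of both its tables differed by a constant factor over 10666 genes, and were the same after rescaling. Ratios are log2(CPM + 1), pseudocount 1, over genes above 0 in either library, with a 2-fold size threshold. Counting intervals used recovered reads. Symbols came from GENCODE M21 (98.8% of IDs matched); 1 of 111 IDs of the rule was not in the tables. Pseudogene copies were matched with BLAST 2.17.0, and tables were handled in Python 3.11.15 with pandas 2.3.3, numpy 2.4.6, scipy 1.17.1 and matplotlib 3.10.9. Code was tested on simulated data.

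Genes were named by role (mitochondrial genome, complex II, core subunits, tissue isoforms), as the highest or lowest ratio of a complex or list, or where at 20 CPM in 1 library and under 1 in another. The members and lists were chosen with earlier results of these data known. Alternatives were another pseudocount, a 20 CPM filter, centring, a 1.5-fold threshold, the deposited scale, structural subunits only and, added after values were seen, 2 treatments of near-identical copies and the length definition. The design foresaw raw counts as a possibility. Values of 1 member that the naming rule covers are not reported here.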

Additional observations from a re-analysis of the deposited data

Results flagged for a closer look

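Pseudogene copies of members lie outside the main measurement and were above their LN level of 237 CPM in the 4-month adipose libraries, at 1105 CPM in lean and 1005 in obese. For copies of mitochondrial genes the values were 606 and 592 CPM, beside 212 in LN. For copies of nuclear members they were 499 and 414 CPM, beside 24.9 in LN. Whether this is particular to copies of members was not tested, since pseudogenes of other genes were not summed.

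Uqcrc1 went opposite ways against LN, with a log2 ratio of -1.83 in lean, -3.27 in obese and 1.08 in 10-month adipose. With 1 library per group this difference was not tested.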

How the results depend on the processing

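With 1 library per group no library could be left out. No paired analysis was possible because each group has 1 library and no test was made. With a mean of at least 20 CPM, members higher fell to 1 in lean, 3 in obese and 2 in 10-month adipose against LN; in obese against lean they were 3 lower and 4 higher, and 11 were lower in the library labelled Med23 KO against 10-month adipose, where the nuclear median changed sign, from -0.02 to 0.061. With a pseudocount of 5 CPM, members higher were 2 of 105 in obese and 3 of 104 in 10-month adipose against LN. Of all genes, 25.3% and 21.1% were higher at that setting. Obese against lean then had 4 lower and 4 higher, and the share of all genes for it is not given here. With a 1.5-fold threshold, 70 of 103 were lower in lean and 79 of 105 in obese against LN, beside 36.1% and 27.9% of all genes; obese against lean had 15 lower and 14 higher (all genes 26.6% and 40.7%), 10-month against lean 47 and 18 (40.2% and 34.7%), and the library labelled Med23 KO against 10-month adipose 27 and 18 (36.7% and 40.7%). Structural subunits alone left 4 of 91 higher in obese against lean, beside 34.0% of all genes. Without near-identical mitochondrial genes, 3 of 97 were higher in obese against LN, beside 43.8% of all genes. In the library labelled Med23 KO against 10-month adipose, 5 were higher both after centring and on the deposited scale. The shares of all genes at those settings are not given here. With a total that leaves out pseudogene, small RNA and predicted IDs, mitochondrial shares were 2.31% in LN, 0.966% in lean, 1.51% in obese, 1.37% in 10-month adipose with 1.64% in the library labelled Med23 KO. The cause was not tested beyond what each setting leaves out.

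On the deposited scale the nuclear medians were -0.92 in lean and -0.99 in obese against LN and -0.32 in the library labelled Med23 KO against 10-month adipose. The mitochondrial median in 10-month against lean adipose was 0.58 without near-identical genes. The length definition was changed after values under the first were seen; all 12 shares of short genes stayed within 1.5 times, and the report gives both definitions for the 3 comparisons against LN. Single libraries limit every result: intervals cover counting error, and the smallest value listed is 6 to 10 reads.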
